A study of Mus musculus with 12 samples.

Results

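The HoxD cluster holds 9 genes in the mouse, Hoxd1, Hoxd3, Hoxd4, Hoxd8, Hoxd9, Hoxd10, Hoxd11, Hoxd12 and Hoxd13, all of which encode homeodomain transcription factors. They were taken by symbol from a microarray study of R1 mouse embryonic stem cells. All 9 of 9 were measured, each by exactly 1 probe set (the group of short probes read as a single value), among 19938 genes in all. Hox genes lie in 4 clusters in mammals and are laid out along the chromosome in the order in which they act along the body axis. In embryos and in stem cells the genes at the Hoxd1 end tend to respond to retinoic acid early, and those at the Hoxd13 end are best known for patterning the lower trunk, the limbs and the digits. In stem cells the clusters are held silent by polycomb complexes, which deposit repressive histone marks.

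The study compared cells infected with a scrambled control (Scrambled) with cells in which SET was knocked down, as KD1 and KD2. SET is a histone chaperone and an inhibitor of the phosphatase PP2A. Each was measured while growing as stem cells (ESC) in 15% fetal bovine serum with 1000 U/ml of the self-renewal cytokine LIF, and after 4 days of differentiation in 1 µM retinoic acid (RA) with 10% serum and no LIF. This gave 6 groups of 2 arrays, called ESC Scrambled, ESC KD1, ESC KD2, RA Scrambled, RA KD1 and RA KD2. The RA and ESC groups differ in retinoic acid, serum and LIF at once, and these cannot be told apart. The labels speak of knockdown and control clones and of biological replicates, and name no separate cultures. The p-values therefore measure only the spread between arrays, and a difference between a knockdown and Scrambled cannot be told apart from a difference between lines. In these bulk samples, fewer cells of a type and less RNA per cell cannot be told apart.

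Values are log2 intensities on which 1 unit is a doubling. The array medians lay between 7.17 and 7.24, and the number of arrays limits the precision. The file gives no detection call, so no value can be said to lie above background, and levels of different probe sets were not compared. Set itself was read by a bright probe set (10470893) that it shares with the symbol BC085271. That probe set read 12.93 and 12.71 in ESC Scrambled, 12.13 and 11.94 in ESC KD1, and 12.15 and 11.87 in ESC KD2. In RA it read 12.27 and 12.29 in Scrambled, 11.28 and 11.16 in KD1, and 11.70 and 11.99 in KD2. This shared probe set was lower on every knockdown array than on both Scrambled arrays of the same labelled state. A second bright probe set shared with that symbol (10587486) was also lower on every knockdown array. In RA it read 12.09 and 12.19 in Scrambled, 11.21 and 11.17 in KD1, and 11.50 and 11.97 in KD2. The Set probe sets that carry no second symbol, which read lower, did not separate knockdown from Scrambled in RA. Probe set 10470905 read 6.68 and 6.45 in RA Scrambled, 6.61 and 6.72 in RA KD1, and 6.79 and 7.91 in RA KD2. Probe set 10470907 read 5.83 and 6.09 in RA Scrambled, 6.35 and 6.04 in RA KD1, and 6.20 and 7.05 in RA KD2. On neither did the knockdown arrays of a line all lie below the RA Scrambled arrays, so these probe sets do not show the knockdown in RA.

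A pair of arrays went against their labels. Over all genes, ESC KD2 replicate 2 correlated at 0.952 on average with the ESC arrays and at 0.986 with the RA arrays, and RA KD2 replicate 2 correlated at 0.952 with RA and at 0.986 with ESC. For the other 10 arrays the own-state mean was 0.979 to 0.984 and the other-state mean 0.944 to 0.959. The mean of 12 stem cell markers was 9.72 on ESC KD2 replicate 2, against 11.68 to 12.05 on the other ESC arrays. It was 11.996 on RA KD2 replicate 2, against 8.67 to 9.56 on the other RA arrays. No array was moved to another group. Each test is given with all 12 arrays and again with the 10 arrays left without this pair, in which KD2 is 1 array per state, assumed to vary like the other groups. Calls rest on limma p-values adjusted over all 19938 genes by the Benjamini-Hochberg method, at a threshold of 0.05.

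The members lie on chromosome 2 (RefSeq, GRCm38.p6) in the order Hoxd13, Hoxd12, Hoxd11, Hoxd10, Hoxd9, Hoxd8, Hoxd3, Hoxd4 and Hoxd1 by the start of the gene span. Hoxd13 spans chr2:74668225-74671603, and its start serves as the origin for distances. Hoxd12 (chr2:74675013-74677705) begins 6.8 kb from it and Hoxd11 (chr2:74679558-74687016) 11.3 kb. These are the members at the posterior end, together with Hoxd10 and Hoxd9. Hoxd10 (chr2:74684273-74695106) begins at 16.0 kb and Hoxd9 (chr2:74697763-74700208) at 29.5 kb. Hoxd8 (chr2:74704615-74707933) begins at 36.4 kb, Hoxd3 (chr2:74711993-74748271) at 43.8 kb, and Hoxd4 (chr2:74721978-74729160) at 53.8 kb. Hoxd1 (chr2:74762980-74765142) stands alone at 94.8 kb, at the end of the cluster that faces Mtx2. The spans of Hoxd10 and Hoxd11 overlap, as do those of Hoxd3 and Hoxd4, so a signal may not belong to 1 member of such a pair. The Hoxd3 span encloses that of Hoxd4, so the order of these genes depends on the start. By the end of the span Hoxd4 comes before Hoxd3, which ends nearer to Hoxd1.

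Stretches of 250 bases before the start are shown for Hoxd8 and Hoxd4, the members with the largest differences between RA Scrambled and ESC Scrambled, for Hoxd10, a posterior member whose RA values exceeded the range of its ESC values in Scrambled alone, and for Hoxd13, at the posterior end. All are on the plus strand of GRCm38.p6, from RefSeq, and run 5′ to 3′. Capitals mark letters that match, on either strand, a hexamer that retinoic acid receptors bind as spaced pairs, or the TATA box. The hexamers searched were AGGTCA and its variant AGTTCA as well as GGGTCA and its variant GGTTCA, and the TATA box was searched as TATAAA. A match on the minus strand shows as the reverse complement of these letters. The Hoxd4 stretch, chr2:74721728-74721977, lies inside the span of Hoxd3, and the Hoxd10 stretch, chr2:74691641-74691890, inside that of Hoxd10 itself. The others are chr2:74704365-74704614 for Hoxd8 and chr2:74667975-74668224 for Hoxd13.
Hoxd8: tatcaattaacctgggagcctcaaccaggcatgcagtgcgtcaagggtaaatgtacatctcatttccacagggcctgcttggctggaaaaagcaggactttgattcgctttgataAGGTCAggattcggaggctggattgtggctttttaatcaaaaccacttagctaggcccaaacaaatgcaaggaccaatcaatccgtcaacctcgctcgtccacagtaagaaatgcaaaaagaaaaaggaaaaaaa
Hoxd4: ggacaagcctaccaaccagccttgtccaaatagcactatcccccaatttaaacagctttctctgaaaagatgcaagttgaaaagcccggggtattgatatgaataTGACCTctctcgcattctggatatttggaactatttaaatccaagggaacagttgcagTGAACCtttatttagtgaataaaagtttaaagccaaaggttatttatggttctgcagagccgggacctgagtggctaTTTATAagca
Hoxd10: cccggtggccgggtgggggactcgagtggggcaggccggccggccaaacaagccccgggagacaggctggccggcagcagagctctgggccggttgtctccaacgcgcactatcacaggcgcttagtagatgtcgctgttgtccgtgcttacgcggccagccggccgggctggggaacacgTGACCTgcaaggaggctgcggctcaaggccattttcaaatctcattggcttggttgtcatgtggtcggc
Hoxd13: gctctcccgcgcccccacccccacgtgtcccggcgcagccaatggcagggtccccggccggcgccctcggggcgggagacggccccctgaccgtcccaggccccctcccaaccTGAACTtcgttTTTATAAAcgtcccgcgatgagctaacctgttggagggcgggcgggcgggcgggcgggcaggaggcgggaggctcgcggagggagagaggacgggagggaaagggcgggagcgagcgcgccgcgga

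A receptor hexamer stood in the stretches of 5 of the 9 members, Hoxd3, Hoxd4 (2 matches), Hoxd8, Hoxd10 and Hoxd13. Of 32851 such stretches before gene starts, 38.6% hold a match. Hoxd11 has 2 starts in the table, which gives 10 stretches for the 9 members. No pair of hexamers in the same direction with 5 or 2 bases between them stood in any of the 10, against 0.1% and 0.2% of all. TATAAA, found in 12.4% of all, stood in those of Hoxd4 (1 match) and Hoxd13 (2 overlapping matches on opposite strands). CG pairs numbered 31 in the stretch of Hoxd13, 24 in that of Hoxd1 and 20 in that of Hoxd10. Hoxd4 had 3 and Hoxd8 6, where the median of all stretches is 6. The stretches of Hoxd11 had 2 and 20. A match is a description of letters and not a binding site, and its absence says only that these letters are not in this stretch.

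In Scrambled cells nearly the whole cluster was higher after 4 days in RA than in growing stem cells. With 12 arrays, 7 of the 9 members rose, where 8.14% of all genes did. With 10 arrays 8 of 9 rose, where 21.8% of all genes did. The median difference over the members was 0.78 log2 units, against -0.04 over all genes. Hoxd12 alone was not called in either fit. These calls by adjusted p in the 12-array fit depend on single arrays. The count was 0 when any 1 of the 8 Scrambled or KD1 arrays was left out and 8 when any 1 KD2 array was, while in the 10-array fit it was 8 with each of those 8 Scrambled and KD1 arrays left out in turn. No share of all genes was computed for the fits with an array left out. Whether these shifts were particular to the members was not tested.

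**Figure D1:**
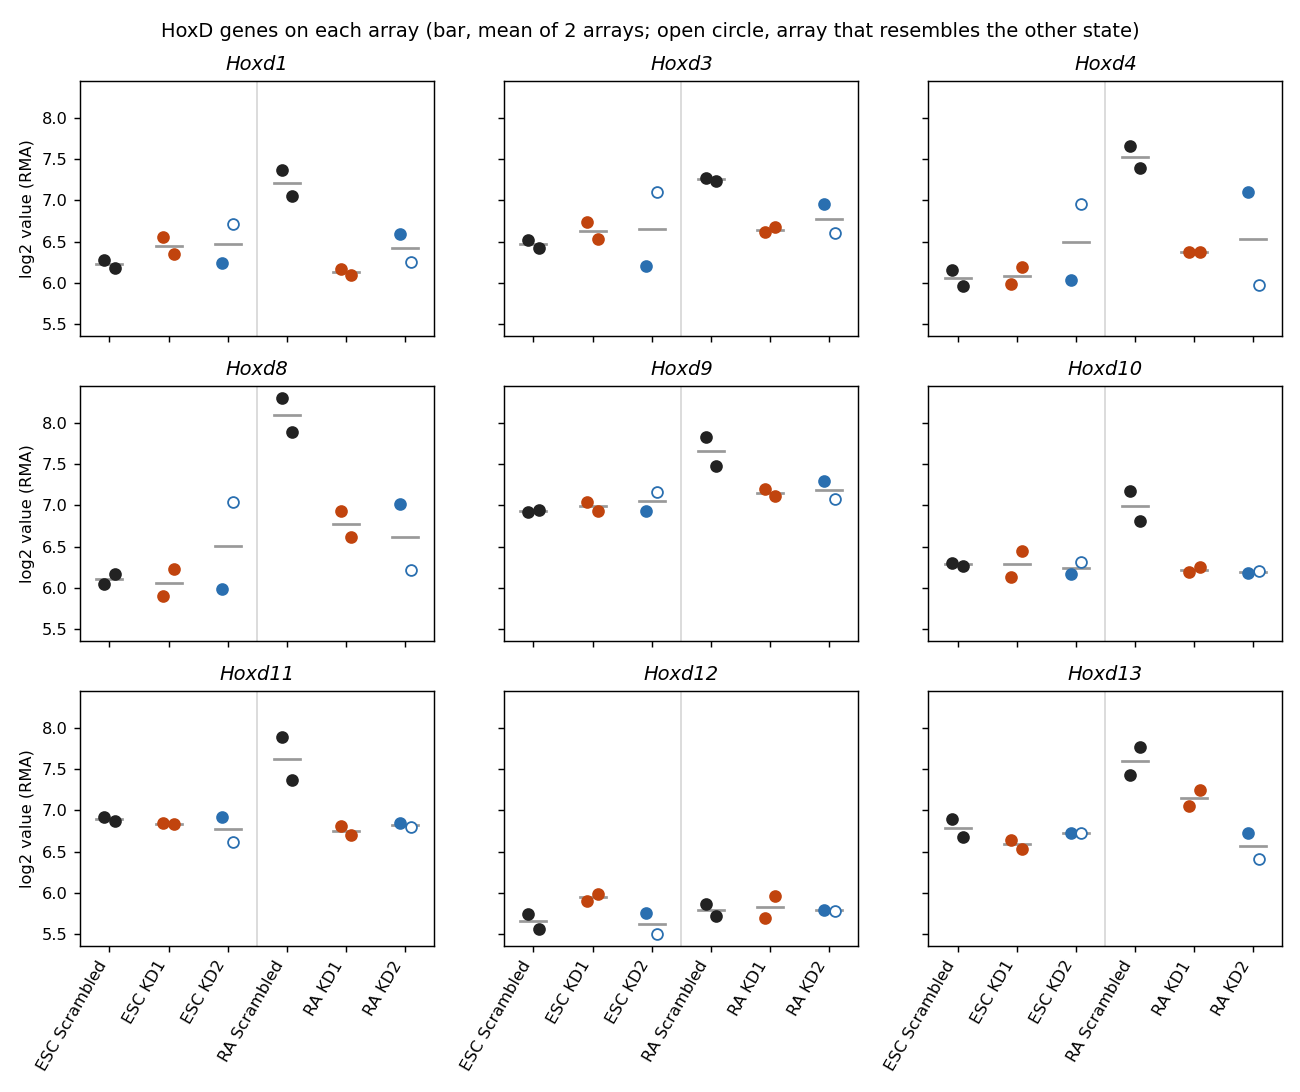
Deposited log2 value of each HoxD gene on each of the 12 arrays, by group (x axis), with 1 panel per gene, a grey bar at the mean of the 2 arrays, and open circles for the KD2 arrays that resembled the other state. The RA Scrambled arrays lie above all other 10 arrays for 8 of the 9 genes, and Hoxd12 stays within 0.485 log2 units throughout.

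Hoxd8, a gene of the trunk region of the body axis, had the widest range. It read 6.05 and 6.16 in ESC Scrambled and 8.31 and 7.89 in RA Scrambled. All other ESC arrays read 5.90 to 6.23 except ESC KD2 replicate 2, which read 7.04. Both RA Scrambled arrays were far above both ESC Scrambled arrays, with no overlap. The difference was 2.00 (SE 0.36, 12 arrays, limma adjusted p = 0.0296), or 3.99-fold, and 10 arrays gave the same value with SE 0.18.

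Hoxd4 acts in the hindbrain and upper neck and is known for a nearby enhancer that responds to retinoic acid. It read 6.16 and 5.97 in ESC Scrambled and 7.66 and 7.39 in RA Scrambled, with no overlap. It rose by 1.46 (SE 0.37, 12 arrays, limma adjusted p = 0.0431), or 2.75-fold. The other genes at this end are Hoxd3, which patterns the first vertebrae of the neck, and Hoxd1, at the anterior end and known in mouse for a role in pain-sensing neurons. Hoxd3 read 6.52 and 6.42 in ESC Scrambled and 7.27 and 7.24 in RA Scrambled. Its difference of 0.78 was not called with 12 arrays (limma adjusted p = 0.0623, SE 0.25) and was called with 10 (adjusted p = 0.00042, SE 0.11). The groups of Hoxd3 did not overlap in Scrambled, so the calls differ by the spread pooled over all groups. Hoxd1 read 6.28 and 6.18 in ESC Scrambled and 7.37 and 7.06 in RA Scrambled. It rose by 0.98 (SE 0.19, 12 arrays, limma adjusted p = 0.0323).

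The posterior members rose by similar amounts, apart from Hoxd12. Hoxd13, which shapes the digits and the genital and gut openings, read 6.89 and 6.68 in ESC Scrambled and 7.43 and 7.77 in RA Scrambled. Hoxd11, a gene of the forearm and kidney, read 6.92 and 6.87 in ESC Scrambled and 7.89 and 7.36 in RA Scrambled. In both genes the lower RA array was above the higher ESC array. Hoxd10, which acts in lumbar motor neurons, read 6.30 and 6.26 in ESC Scrambled and 7.18 and 6.81 in RA Scrambled. Hoxd9, a gene of the lower trunk and proximal limb, read 6.92 and 6.94 in ESC Scrambled and 7.83 and 7.48 in RA Scrambled. Neither overlapped between states. With 12 arrays the limma differences were 0.82 for Hoxd13, 0.73 for Hoxd11, 0.71 for Hoxd10 and 0.72 for Hoxd9, with SE of 0.14 to 0.17 and adjusted p of 0.0336 to 0.0412. In the same fit Hoxd12, a distal limb gene, differed by 0.14 (SE 0.13, limma adjusted p = 0.452). Its arrays overlapped, at 5.75 and 5.56 in ESC Scrambled and 5.87 and 5.72 in RA Scrambled.

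In the KD1 line RA and ESC differed little at most members. With 12 arrays 0 of 9 members were called by limma, where 7.02% of all genes rose. At an unadjusted p below 0.05 there was 1 member and 7271 genes. With 10 arrays 2 of 9 rose, where 20.3% of all genes did, a share near the background. These were Hoxd8 and Hoxd13. Hoxd8 read 5.90 and 6.23 in ESC KD1 and 6.93 and 6.61 in RA KD1. The difference of 0.71 had an SE of 0.18 (10 arrays, limma adjusted p = 0.0106), and the groups did not overlap. Hoxd13 read 6.64 and 6.53 in ESC KD1 and 7.06 and 7.25 in RA KD1, a difference of 0.57 (SE 0.15, 10 arrays, limma adjusted p = 0.0125). Of these calls 1 was lost without either ESC KD1 array or either RA KD1 array. Both RA KD1 arrays lay above both ESC KD1 arrays for 4 members, Hoxd4, Hoxd8, Hoxd9 and Hoxd13, where 30.4% of all genes did so. The median over the 9 members was 0.01.

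The anterior gene Hoxd1 ran the other way in KD1, without a call. It read 6.55 and 6.35 in ESC KD1 and 6.17 and 6.10 in RA KD1, a difference of -0.32 (10 arrays, limma adjusted p = 0.078). Hoxd4 read 5.99 and 6.19 in ESC KD1 and 6.37 on both RA KD1 arrays. Its arrays did not overlap, but the difference of 0.28 was not called (10 arrays, limma adjusted p = 0.115). Hoxd3, Hoxd9, Hoxd10, Hoxd11 and Hoxd12 differed by -0.12 to 0.17, none of them called in either fit.

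In the KD2 line the 12-array fit mixes arrays that resembled opposite states, and it called 0 members and 0 genes of any kind in either direction (0% of all genes). At an unadjusted p below 0.05 it found 0 members and 344 genes. With 10 arrays, which is 1 array per state, 3 of 9 members rose, where 11% of all genes did. Hoxd4 read 6.04 in ESC KD2 replicate 1 and 7.10 in RA KD2 replicate 1, a difference of 1.06 (SE 0.18, limma adjusted p = 0.00451). Hoxd8 read 5.99 and 7.01, a difference of 1.03 (SE 0.25, limma adjusted p = 0.0201). Hoxd3 read 6.20 and 6.96, a difference of 0.76 (SE 0.16, limma adjusted p = 0.00997). The 3 that rose are neighbours on the chromosome. Hoxd1 and Hoxd9 each differed by 0.36, without a call (10 arrays, limma adjusted p = 0.22 and 0.238). The 4 members from Hoxd10 to Hoxd13 differed by -0.08 to 0.04.

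The array labelled ESC KD2 replicate 2 read within -0.29 to 0.15 of RA KD2 replicate 1 at all 9 members. It was nearer to that array than to ESC KD2 replicate 1 at 7 of them. From Hoxd10 to Hoxd13 those arrays differed by only -0.08 to 0.04, so nearness there separates little. At Hoxd4 it read 6.96 and at Hoxd3 7.10. RA KD2 replicate 2 read 5.98 at Hoxd4 and 6.61 at Hoxd3. It lay within the range of the 5 other ESC arrays at 6 of the 9 members. Neither count was made over all genes.

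**Figure D2:**
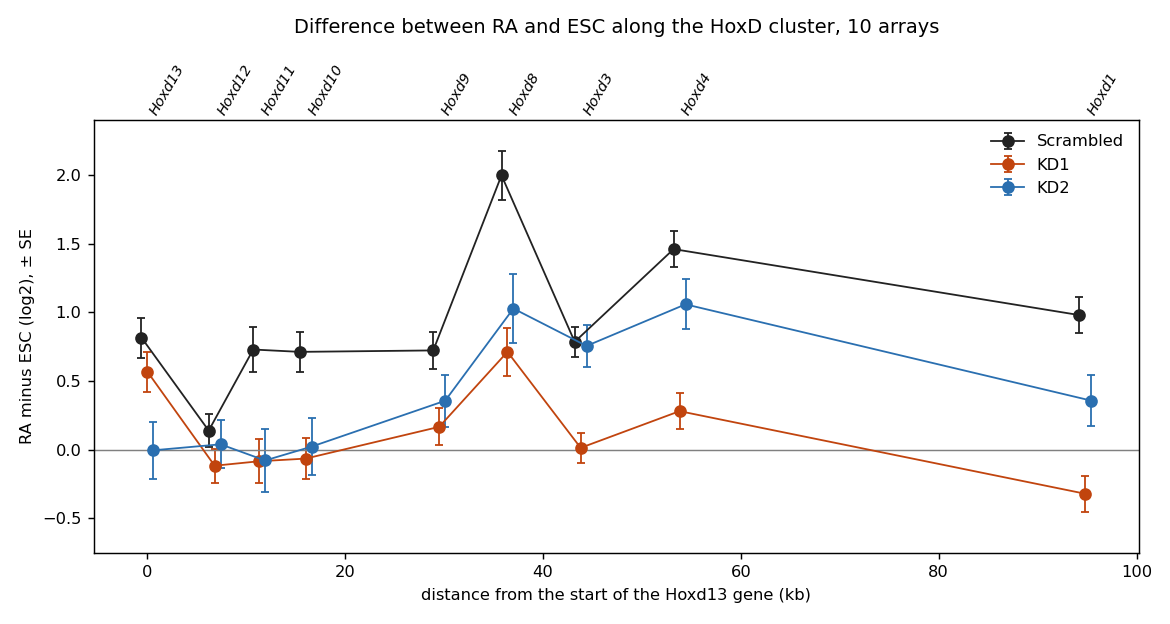
Difference between RA and ESC in log2 units (y axis, points with ± SE from the 10-array fit) against the distance in kb of each gene start from the start of Hoxd13 (x axis), for Scrambled, KD1 and KD2; points are moved sideways slightly so that they can be told apart. Scrambled lies above KD1 at every gene and above KD2 at every gene, from 0.14 at Hoxd12 to 2.00 at Hoxd8, while from Hoxd12 to Hoxd10 both knockdown lines lie near 0.

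Within RA, KD1 was lower than Scrambled at 8 of the 9 members with no overlap between arrays, where 30.6% of all genes were lower without overlap. With 12 arrays 3 members fell, where 0.742% of all genes did. With 10 arrays 7 fell, where 6.69% of all genes did. The median over the members was -0.77, against -0.01 over all genes. The 12-array count ranged from 0 to 4 when 1 array at a time was left out, and was 0 without RA Scrambled replicate 1, RA KD1 replicate 1 or RA KD1 replicate 2. It was 1 without either ESC Scrambled array. The count with 10 arrays was 3 to 7 with each of the 8 Scrambled and KD1 arrays left out, namely 3 without RA KD1 replicate 2 and 4 without RA Scrambled replicate 1 or RA KD1 replicate 1.

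Hoxd1, Hoxd10 and Hoxd11 fell with 12 arrays. Hoxd1 read 7.37 and 7.06 in RA Scrambled and 6.17 and 6.10 in RA KD1, and fell by 1.08 (SE 0.19, limma adjusted p = 0.0226). Its RA KD1 arrays were the lowest of the 12, below even those of ESC Scrambled. Hoxd10 read 6.19 and 6.25 in RA KD1, within the range of its ESC arrays, and fell by 0.77 (SE 0.14, 12 arrays, limma adjusted p = 0.0308). Hoxd11 read 6.81 and 6.70 in RA KD1, and fell by 0.87 (SE 0.17, 12 arrays, limma adjusted p = 0.0394). All 3 thus had RA KD1 values no higher than the highest ESC array.

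The other 4 fell with 10 arrays alone. Hoxd8 had the largest difference, -1.33 (10 arrays, SE 0.18, limma adjusted p = 0.00165), which was not called with 12 (adjusted p = 0.124). Its RA KD1 arrays, at 6.93 and 6.61, stood between ESC Scrambled and RA Scrambled. Hoxd4 differed by -1.15 (10 arrays, limma adjusted p = 0.000667; 12 arrays, 0.202). Hoxd3 read 6.62 and 6.68 in RA KD1 and differed by -0.61 (10 arrays, limma adjusted p = 0.00755). Hoxd9 read 7.20 and 7.11 and differed by -0.50 (10 arrays, limma adjusted p = 0.0429). All 4 stood below both RA Scrambled arrays in RA KD1. Hoxd13 differed by -0.45 without a call (10 arrays, limma adjusted p = 0.0871). Hoxd12 read 5.69 and 5.96 in RA KD1 and differed by 0.04.

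KD2 was also below Scrambled in RA at 8 of the 9 members, all but Hoxd12, on RA KD2 replicate 1 (30.7% of all genes) and on both RA KD2 arrays (19.2% of all genes). This comparison and that of KD1 share the RA Scrambled arrays. RA KD2 replicate 2 resembled ESC, so the count over both RA KD2 arrays mixes states. With 12 arrays limma called 1 of 9, Hoxd13, where 0.246% of all genes fell. Hoxd13 read 6.72 and 6.41 in RA KD2 and fell by 1.04 (SE 0.16, 12 arrays, limma adjusted p = 0.0465). The 6.41 is from RA KD2 replicate 2, so this call averages in the array that resembled ESC. With 10 arrays 0 members were called, where 0.637% of all genes fell, and 6 members and 2235 genes had an unadjusted p below 0.05. The 10-array differences nearest to a call were -1.09 at Hoxd8 (SE 0.22, limma adjusted p = 0.0612) and -0.88 at Hoxd13 (SE 0.18, adjusted p = 0.0654). Hoxd10 read 6.19 on RA KD2 replicate 1, the only RA KD2 array of that fit, and differed by -0.81 (10 arrays). The member median with 10 arrays was -0.62. The 10-array count was 2 without either ESC Scrambled array and 1 without RA Scrambled replicate 2. The 12-array count was 0 without any 1 array other than RA KD2 replicate 1. Without that array RA KD2 was replicate 2 alone, which resembled ESC, so the count of that fit is not read here. The deviations of replicate 2 from replicate 1 correlated at 0.141 to 0.633 between groups of a state. Pairs that include KD2 hold the arrays that resembled the other state. Scrambled and KD1 alone gave 0.633 in ESC and 0.15 in RA. With the replicate number as a block within each state, limma called 5 members with 10 arrays, all lower in KD2, where 3.06% of all genes fell. These were Hoxd1, Hoxd8, Hoxd10, Hoxd11 and Hoxd13. With 12 arrays and that block it called 0. With 10 arrays KD2 is 1 array per state, so the block shift came from Scrambled and KD1 alone. The block also left fewer residual degrees of freedom. No label says that a number marks a shared day or culture.

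**Figure D3:**
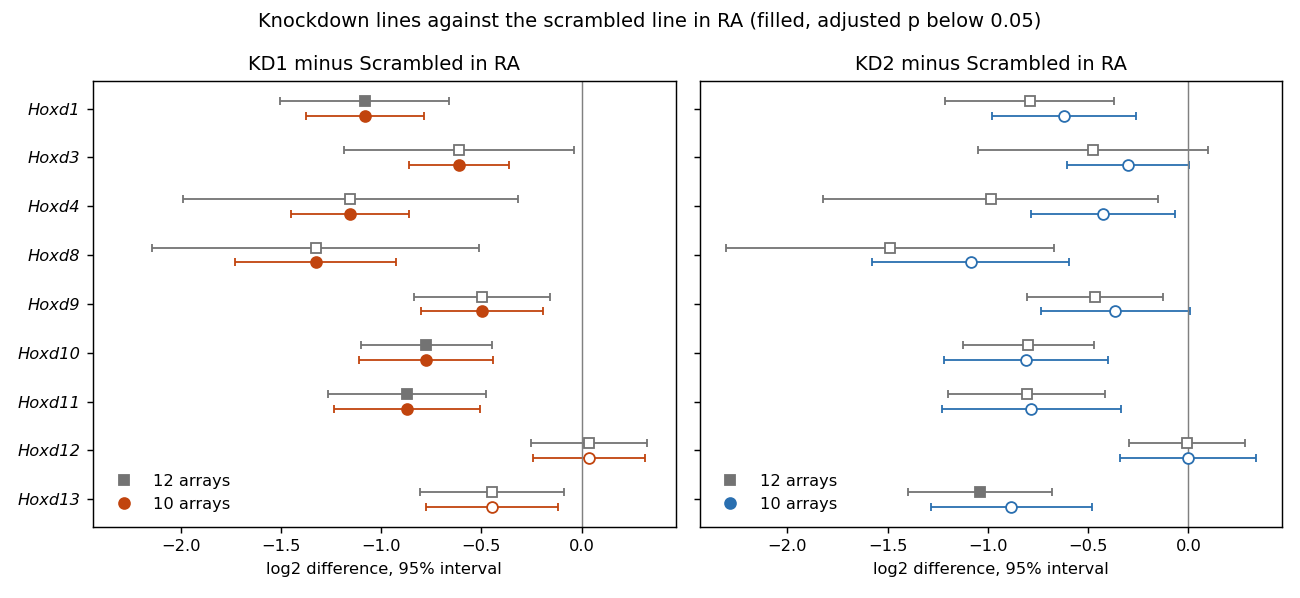
Difference of each knockdown line from Scrambled in RA in log2 units (x axis) with 95% intervals, for each HoxD gene (y axis), from the fits of 12 arrays (squares) and 10 arrays (circles); filled symbols have an adjusted p below 0.05. For KD1, 3 genes are filled with 12 arrays and 7 with 10, and for KD2 Hoxd13 alone is filled, with 12 arrays.

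The knockdown lines differed from each other in RA at 1 member. Hoxd4 read 6.37 on both RA KD1 arrays and 7.10 on RA KD2 replicate 1, a difference of -0.73 (SE 0.16, 10 arrays, limma adjusted p = 0.0405). Of all genes 1.31% were lower in KD1 by this call, and the member count was 0 without any 1 of the 4 KD1 arrays. With 12 arrays 0 members were called (0.16% of all genes lower), and 1 member and 2692 genes had an unadjusted p below 0.05. That member was Hoxd13, higher in KD1 by 0.59 (SE 0.16, 12 arrays, limma adjusted p = 0.145). The 10-array difference at Hoxd8 was -0.24, with a 95% interval of -0.73 to 0.25, which does not show that the lines were alike.

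The difference between RA and ESC was also compared directly between lines. For KD1 against Scrambled, limma called 0 members with 12 arrays (0.0552% of all genes were lower), with 5 members and 1601 genes at an unadjusted p below 0.05. With 10 arrays 4 of 9 were called, all lower in KD1, where 2.28% of all genes were. These were Hoxd1, by -1.30 (SE 0.18, limma adjusted p = 0.00551), Hoxd3, by -0.77 (SE 0.16, adjusted p = 0.0253), Hoxd4, by -1.18 (SE 0.18, adjusted p = 0.0084) and Hoxd8, by -1.28 (SE 0.25, adjusted p = 0.0221). They are the 4 members at the anterior end. By the same call 5 of 9 HoxB, 2 of 10 HoxA and 1 of 9 HoxC genes were lower in KD1. The posterior members Hoxd10 and Hoxd11 differed by -0.78 and -0.81 without a call (10 arrays, limma adjusted p = 0.0766 and 0.0903). The count was 1 to 5 with each of the 8 Scrambled and KD1 arrays left out in turn, namely 1 without RA KD1 replicate 2 and 2 without RA Scrambled replicate 1. With the replicate number as a block within each state and 10 arrays, 7 members were called, all lower in KD1, where 7.24% of all genes were. They are the 4 anterior members and Hoxd9, Hoxd10 and Hoxd11, so under that block the calls were not limited to the anterior end. For KD2 against Scrambled limma called 0 members with 12 arrays and 0 with 10 (0.0201% and 0.301% of all genes lower), and 7 and 5 members had an unadjusted p below 0.05, among 4320 and 1771 genes. With that block and 10 arrays 1 member was called for KD2, Hoxd8, where 2.51% of all genes were lower. Leaving out ESC KD2 replicate 1 or RA KD2 replicate 1 left that group with only the array that resembled the other state. The KD2 counts of those fits are not read here.

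In growing stem cells no member was called between a knockdown line and Scrambled. In KD1, limma called 0 members with 12 arrays and 0 with 10 (0.0652% and 1.92% of all genes either way), and 1 member in each fit had an unadjusted p below 0.05, among 1507 and 3142 genes. With 12 arrays that member was Hoxd12, which read 5.75 and 5.56 in ESC Scrambled and 5.90 and 5.98 in ESC KD1. In KD2, limma called 0 in both fits (0.0853% and 0.988% of all genes either way), and 0 members had an unadjusted p below 0.05, among 2057 and 2359 genes.

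The 4 Hox clusters were set side by side, with 10 HoxA, 9 HoxB and 9 HoxC genes measured. In Scrambled the median difference between RA and ESC was 0.78 in HoxD, 1.02 in HoxA, 1.94 in HoxC and 2.83 in HoxB. In KD1 the medians were 0.01 in HoxD, 0.56 in HoxA, 1.28 in HoxC and 1.49 in HoxB. HoxD thus had the lowest median of the 4 in both, and the clusters themselves were not tested against each other. From ESC to RA in KD1 with 10 arrays, 2 of 9 HoxD genes rose, as did 8 of 10 HoxA, 7 of 9 HoxB and 6 of 9 HoxC genes, where 20.3% of all genes did. In KD2 with 10 arrays 3 of 9 HoxD genes rose, as did 7 of 10 HoxA, 9 of 9 HoxB and 6 of 9 HoxC genes, where 11% of all genes did.

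The anterior and posterior genes of each cluster were then taken separately by paralogue group. Over paralogue groups 1 to 8 the median RA difference in Scrambled was 1.22 in HoxD (4 genes), 2.48 in HoxA (6 genes), 2.19 in HoxB (7 genes) and 2.73 in HoxC (4 genes). For groups 9 to 13 it was 0.72 in HoxD (5 genes), 0.69 in HoxA (4 genes), 0.55 in HoxC (5 genes) and 3.48 in HoxB (2 genes). The widest difference of any Hox gene was that of Hoxa5, at 5.17. In KD1 the medians over groups 1 to 8 were 0.15 in HoxD, 1.72 in HoxA, 1.49 in HoxB and 2.49 in HoxC, and over groups 9 to 13 they were -0.06, 0.19, 1.24 and 0.47. In KD2 with 10 arrays they were 0.89, 2.48, 2.85 and 3.37 over groups 1 to 8, and 0.02, 0.14, 1.78 and 0.50 over groups 9 to 13, in the same order. The HoxD median over groups 1 to 8 was the lowest of the 4 clusters in all 3 lines. That over groups 9 to 13 was the lowest in KD1 and KD2 but not in Scrambled, where those of HoxA and HoxC were lower. The RA Scrambled arrays stood above all other 10 arrays for 8 of 9 HoxD genes, where 8.94% of all genes did so, and for 4 of 10 HoxA, 2 of 9 HoxB and 1 of 9 HoxC. That count was chosen after the values were seen. In RA the KD1 median against Scrambled was -0.77 in HoxD, -0.55 in HoxA, -0.81 in HoxB and -0.35 in HoxC. Both RA KD1 arrays lay below both RA Scrambled arrays for 8 of 9 HoxD, 9 of 10 HoxA, 8 of 9 HoxB and 5 of 9 HoxC genes. Of all genes 30.6% did so. Outside HoxD the 12-array fit called 1 Hox gene there, Hoxb13, which fell by 3.10 (limma adjusted p = 0.0106). With 10 arrays 5 of 10 HoxA, 6 of 9 HoxB and 3 of 9 HoxC genes fell, against 7 of 9 in HoxD and 6.69% of all genes. The KD2 median with 10 arrays was -0.62 in HoxD, -0.16 in HoxA, 0.12 in HoxB and -0.16 in HoxC. With 12 arrays, which mix the states, the KD2 medians were -0.80, -0.81, -1.28 and -0.75 in the same order.

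**Figure D4:**
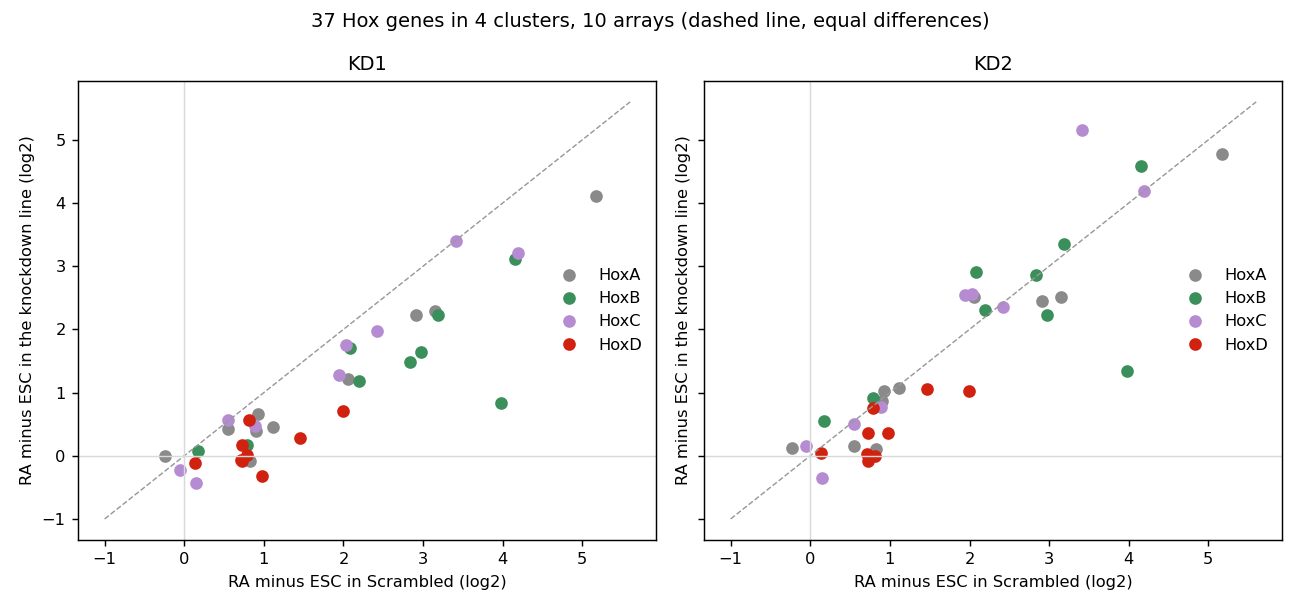
Difference between RA and ESC in log2 units in KD1 (left, y axis) and KD2 (right, y axis) against that in Scrambled (x axis) for the measured Hox genes of 4 clusters, 10 arrays; the dashed line marks equal differences. In both panels the HoxD genes lie at or below the line, at 2.00 or less in Scrambled and at 1.06 or less in the knockdown lines.

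Genes on both sides of the cluster were also measured, some of them far from it. From the Hoxd13 start, Wipf1 begins at -1238.6 kb, Chn1 at -1057.6 kb, Atp5g3 at -759.8 kb and Nfe2l2 at 1007.3 kb. Haglr lies inside the cluster, between Hoxd3 and Hoxd1, and was counted with the flanking genes. Of 10 flanking genes, 2 rose between ESC and RA in Scrambled with 12 arrays (limma), Wipf1 by 1.14 and Nfe2l2 by 0.42, and 0 fell, where 8.14% of all genes rose. With 10 arrays 4 rose, Mtx2 by 0.38 and Haglr by 0.31 as well, and Atp5g3 fell by 0.30, where 21.8% of all genes rose. The median over the 10 was 0.12. Evx2, a homeobox gene beyond the Hoxd13 end that begins at -15.2 kb, read 8.30 and 8.15 in ESC Scrambled and 7.997 and 7.92 in RA Scrambled, and was not called. Mtx2, a mitochondrial import gene beyond the Hoxd1 end, read 11.03 and 11.02 in ESC Scrambled and 11.36 and 11.44 in RA Scrambled. In RA KD1 against RA Scrambled, 1 of the 10 flanking genes fell with 12 arrays and 3 with 10, where 0.742% and 6.69% of all genes fell, and their median was -0.07. Chn1 was called in both fits. It read 9.50 and 9.46 in RA Scrambled and 8.67 on both RA KD1 arrays, and fell by 0.81 (SE 0.13, 12 arrays, limma adjusted p = 0.0195). It was lower in growing KD1 cells too, at 8.56 and 8.63 against 9.29 and 9.32 in ESC Scrambled, a difference of -0.71 that was called with 10 arrays (limma adjusted p = 0.0169) and not with 12 (adjusted p = 0.174). With 10 arrays Wipf1 fell by 0.54 (limma adjusted p = 0.0279), and Mtx2, at 11.01 and 11.02 in RA KD1, fell by 0.39 (adjusted p = 0.0164). Haglr, a non-coding RNA gene that begins 80.2 kb from the Hoxd13 start, read between 4.42 and 4.84 on all arrays. Hoxd3os1, an antisense gene that overlaps the cluster, stayed between 6.20 and 6.75.

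Genes known to act with or on Hox genes were counted by list, against 1622 genes of 19938 that rose (8.14%) and 1129 that fell with 12 arrays, and 4342 (21.8%) and 4154 with 10. In Scrambled with 12 arrays, 3 of 8 TALE cofactors rose, which are homeodomain partners of Hox proteins, led by Meis3 (1.97), Pbx2 (1.41) and Pbx3 (1.37). With 10 arrays 6 of 8 rose, with Meis2 at 5.40 and Meis1 at 4.97. Of 15 retinoid genes 4 rose with 12 arrays, among them Dhrs3 (4.75), which reduces retinal, and Cyp26b1 (3.28), which degrades retinoic acid. With 10 arrays 10 rose and 2 fell, with the receptor Rarb at 5.37. Of 17 polycomb genes 1 rose (Cbx8, 1.79) and 1 fell (Mtf2, -0.96) with 12 arrays, and 7 rose and 8 fell with 10. Of 9 trithorax and demethylase genes 0 rose and 1 fell (Rbbp5, -0.90) with 12 arrays, and with 10 arrays 3 fell and 2 rose, the latter near the share of all genes. Of 6 inducers of posterior Hox genes, 0 were called with 12 arrays. With 10 arrays Gdf11, a signal that sets posterior Hox expression, rose by 2.60 and Cdx4 fell by 0.36.

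In RA KD1 against RA Scrambled, 148 of all 19938 genes fell and 315 rose with 12 arrays, and 1333 fell and 1074 rose with 10. With 12 arrays 0 of 8 TALE, 1 of 15 retinoid (Lrat, -1.27), 0 of 17 polycomb, 0 of 9 trithorax and 0 of 6 inducer genes were called by limma. At an unadjusted p below 0.05 there were 2438 genes in that fit. With 10 arrays 1 TALE gene fell (Pbx2, -0.45), 5 retinoid genes fell and 2 rose (Cyp26a1, 1.26, among them), and 4 polycomb genes fell, led by Cbx2 (-0.63) and Phc1 (-0.55). Ezh2, the methyltransferase of the complex, fell by 0.25 (10 arrays, limma adjusted p = 0.0434). The medians of these lists were -0.35 for TALE, -0.42 for retinoid and -0.19 for polycomb genes, against -0.77 for HoxD.

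Markers of several other cell types moved with the KD1 result, led by those of extraembryonic endoderm. Of 8 such markers, 4 rose in RA KD1 against RA Scrambled with 12 arrays and 8 with 10, and the median difference was 2.72. Of all 19938 genes 315 and 1074 rose in these fits. Their mean level was 9.33 and 9.44 in RA Scrambled, 11.88 and 11.94 in RA KD1, and 10.18 in RA KD2 replicate 1. In ESC it was 7.52 and 7.46 in Scrambled, 8.14 and 8.02 in KD1, and 8.44 in KD2 replicate 1. All 8 were thus already above Scrambled in ESC KD1, with 0 called with 12 arrays and 4 with 10. Fibroblast and mesoderm markers lay the other way. All 6 fibroblast markers were below RA Scrambled in RA KD1, with 0 called with 12 arrays and 3 with 10, and a median of -0.34. Their mean level was 8.99 and 8.98 in RA Scrambled, 8.51 and 8.24 in RA KD1 and 8.75 in RA KD2 replicate 1, against 7.33 and 7.32 in ESC Scrambled. Of 6 mesoderm markers 5 were below, with 0 called with 12 arrays and 2 with 10, and a median of -0.42. Their mean level was 8.01 and 8.17 in RA Scrambled, 7.35 and 7.11 in RA KD1 and 7.66 in RA KD2 replicate 1, against 6.28 and 6.36 in ESC Scrambled. With 10 arrays 1 of 6 neural markers fell, 1 of 6 trophoblast markers rose, and of 12 stem cell markers 2 rose and 2 fell. Whether a different mix of cells has a part in the lower HoxD values of RA KD1 was not tested.

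Among genes outside the Hox clusters, those whose pattern over the 12 arrays was most like that of Hoxd8 were Satb1 (Pearson r 0.983), Pcdh7 (0.982) and Cxcl15 (0.981). Satb1 encodes a chromatin organiser and Pcdh7 a protocadherin. These points share arrays and groups, 101 genes had an r above 0.95, and the values are a description. Hoxd8 alone among the members spanned at least 2 log2 units, which the choice of like genes required.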

How the data were processed

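Total RNA from 12 samples was hybridised to 1-colour Affymetrix arrays after biotin labelling of cRNA made from 300 ng, per the labels. The deposited values are log2 intensities that the authors summarised with RMA, per the submitters' processing notes, which name no version. RMA corrects background, aligns the arrays' distributions and reduces each probe set to a single number, which compresses differences of dim genes. Of 35556 probe sets, 21789 carried 1 gene symbol in the platform annotation and 1621 several. The probe set with 1 symbol and the highest mean over the arrays stood for each of 19938 genes. A model with a mean for each of the 6 groups was fitted to the 12 arrays with limma 3.58.1 (R 4.3.3), with 6 residual degrees of freedom and a trended empirical Bayes prior of 2.76. The fit to 10 arrays had 4 and 4.93. Adding the replicate number as a block within each state left fewer than 4 residual degrees of freedom with 10 arrays. The Benjamini-Hochberg adjustment ran over all genes, with calls below 0.05. The fit was tested on simulated data. Named genes were all members, flanking genes, at most 4 called genes per list, and for members spanning at least 2 log2 units the 3 most like genes. The members, lists and the arrays left out were chosen with earlier results of these data known. Names and positions came from RefSeq (GRCm38.p6). Alternatives covered array selection, replicate numbers, centring, the prior trend, a filter on dim genes and averaging of probe sets. Gene spans on the chromosome that overlap were not resolved. Figures were drawn with matplotlib 3.10.9.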

Additional observations from a re-analysis of the deposited data

Results flagged for a closer look

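With 10 arrays, the difference between RA and ESC in KD1 differed from that in Scrambled by a direct limma test at 4 members. The value was -1.30 log2 units at Hoxd1, -0.77 at Hoxd3, -1.18 at Hoxd4 and -1.28 at Hoxd8. In all 4 the RA arrays of KD1 lay below those of Scrambled. None of them was called in this test with 12 arrays, and no cause was tested. The same test with 10 arrays called 5 of 9 HoxB, 2 of 10 HoxA and 1 of 9 HoxC genes lower in KD1. Of all genes 2.28% were lower by this call. The median was -0.78 in HoxD, -1.01 in HoxB, -0.67 in HoxA and -0.42 in HoxC, so HoxD did not stand apart from HoxB.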

How the results depend on the processing

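Of 726 member values recomputed under the alternatives, 472 kept their direction and their side of the threshold, 110 lost a call, 137 gained one and 7 turned sign. Without the 2 arrays that resembled the other state, the count of members called went from 0 to 2 for RA against ESC in KD1, 0 to 3 for RA against ESC in KD2, 3 to 7 for KD1 against Scrambled in RA, 1 to 0 for KD2 against Scrambled in RA, 0 to 1 for KD1 against KD2, and 0 to 4 for the KD1 interaction. For KD1 against Scrambled in RA the count was 1 after centring arrays on their median and 1 with only genes whose highest group mean exceeded 7.22, a filter that 6 of 9 members passed (not Hoxd1, Hoxd10 or Hoxd12). For KD2 against Scrambled in RA it was 0 with centring, with that filter and without the prior trend. For RA against ESC in KD1 that filter gave 1.

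Replicate numbers correlated at 0.141 to 0.633 within a state and at -0.864 to 0.105 between states, all 6 within a state above 0.1, with 2 numbers per group and no label that ties a number to a day or batch. Pairs that include KD2 hold the arrays that resembled the other state. Scrambled and KD1 alone gave 0.633 in ESC and 0.15 in RA. With the replicate number as a block, the count was 0 for RA against ESC in Scrambled and 0 for KD2 against Scrambled in RA. With the replicate number as a block within each state it was 1 for RA against ESC in KD1 and 0 for KD2 against Scrambled in RA. With that block and 10 arrays it was 2 and 3 for RA against ESC in KD1 and KD2, 8, 5 and 1 for KD1 against Scrambled, KD2 against Scrambled and KD1 against KD2 in RA, and 7 and 1 for the KD1 and KD2 interactions. The share of all genes rose under that block too, from 2.28% to 7.24% lower for the KD1 interaction. For several of these counts no share of all genes was computed, so they are not read as a result about the members. A block with crossed numbers in KD2, chosen after seeing the data, called 0 members for RA against ESC in KD2.

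With each of the 12 arrays left out in turn, and each of the 8 Scrambled and KD1 arrays of the 10, counts ranged from 0 to 8 for RA against ESC in Scrambled, 0 to 2 in KD1 and 0 to 3 in KD2. They ranged from 0 to 7 for KD1 against Scrambled in RA, 0 to 4 for KD2 against Scrambled in RA, 0 to 1 for KD1 against KD2 in RA, 0 to 5 for the KD1 interaction and 0 to 6 for the KD2 interaction. The 4 and the 6 came from fits whose only KD2 array of a state was the one that resembled the other state. The comparisons within ESC gave 0 under every alternative run. No share of all genes was computed for the fits with an array left out, so these ranges are not read as a result about the members. The 7 values that turned sign rest on the KD2 arrays. For RA against ESC in KD2, without ESC KD2 replicate 1 they were -0.32 at Hoxd3, -0.42 at Hoxd4 and -0.42 at Hoxd8, and without RA KD2 replicate 1 they were -0.05, -0.52 and -0.30, while their highest values with an array left out were 0.76, 1.06 and 1.03. For KD1 against KD2, Hoxd4 was at 0.39 without RA KD2 replicate 1 and at -0.73 at its lowest. The cause of these shifts was not tested beyond the arrays left out. The file gives no background signal, so what dim values limit is unknown.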
